A study of Mus musculus with 4 samples.

Results

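The guanylate-binding protein (Gbp) genes of the mouse lie in clusters on chromosomes 3 and 5, and their loci were compared between naive and interferon-pretreated fibroblasts after 1 h of interferon-beta. Members were the rows with a UCSC transcript ID whose mm9 span overlaps chr3:142150000-142303000, the interval of Gbp2, Gbp3, Gbp5 and Gbp7, or chr5:105500000-105724000, given for Gbp4, Gbp6, Gbp8, Gbp9 and Gbp10. This gave 6 loci, 4 on chromosome 3 and 2 on chromosome 5, of 17576 in the table and of 15883 with a transcript ID. The cells were C57BL/6 mouse embryonic fibroblasts (MEFs) with an H3.3-HA knock-in, a tagged cDNA of histone H3.3 in place of the H3f3b locus, in both groups. The naive group had received no earlier interferon, the pretreated group had, and both then met interferon-beta, a type I interferon, at 100 U/ml for 1 h. The labels do not give the length of the pretreatment, the interval after it, or the number of embryos behind the cells, and beside the RNA-seq of the series title they describe each sample as scTSS-seq. Of the 4 samples, 1 per group, the 0 h libraries were not analysed here. Each value below is therefore that of 1 library without an error between replicates, and differences could not be checked against one.

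GBPs are large GTPases of the dynamin superfamily that interferons induce strongly. They assemble on the vacuoles of intracellular parasites and bacteria and on bacterial surfaces, and help to break them open and to start inflammasome signalling. Gbp2, Gbp5 and Gbp2b (also named Gbp1) end in a motif for lipid attachment that anchors them to membranes, and mice without the chromosome 3 cluster control Toxoplasma gondii poorly. Their transcription answers type I interferon through the interferon-stimulated response element (ISRE), which binds interferon regulatory factors, and interferon-gamma through the gamma-activated site (GAS).

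RefSeq promoters were available for 5 of the 11 Gbp genes on these chromosomes, all 5 in the chromosome 3 cluster. They are shown because these genes lie under the 4 chromosome 3 loci. Each runs from 250 bases before to 50 after a transcript start (GRCm38.p6, 5′ to 3′), with every match to the ISRE core TTTCNNTTTC, searched on both strands, in capitals:
Gbp5 (chr3:142496684-142496983, plus strand): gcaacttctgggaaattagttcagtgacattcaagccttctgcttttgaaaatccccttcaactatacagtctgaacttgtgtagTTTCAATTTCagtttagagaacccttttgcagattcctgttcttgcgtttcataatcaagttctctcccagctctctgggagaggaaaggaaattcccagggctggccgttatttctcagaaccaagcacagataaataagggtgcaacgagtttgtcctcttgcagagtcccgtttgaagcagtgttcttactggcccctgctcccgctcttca
Gbp7 (chr3:142530086-142530385, plus strand): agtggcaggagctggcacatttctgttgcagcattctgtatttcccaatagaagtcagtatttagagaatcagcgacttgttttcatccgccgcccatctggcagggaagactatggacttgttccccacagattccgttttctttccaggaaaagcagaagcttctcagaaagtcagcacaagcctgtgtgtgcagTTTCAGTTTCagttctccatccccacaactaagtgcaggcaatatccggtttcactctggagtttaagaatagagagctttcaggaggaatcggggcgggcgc
Gbp3 (chr3:142559794-142560093, plus strand): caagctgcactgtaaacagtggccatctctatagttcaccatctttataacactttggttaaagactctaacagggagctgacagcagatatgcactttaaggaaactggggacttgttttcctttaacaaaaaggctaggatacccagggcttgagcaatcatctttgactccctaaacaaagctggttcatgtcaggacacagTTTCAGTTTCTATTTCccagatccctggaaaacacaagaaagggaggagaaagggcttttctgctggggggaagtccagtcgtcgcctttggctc
Gbp2b (chr3:142594597-142594896, plus strand): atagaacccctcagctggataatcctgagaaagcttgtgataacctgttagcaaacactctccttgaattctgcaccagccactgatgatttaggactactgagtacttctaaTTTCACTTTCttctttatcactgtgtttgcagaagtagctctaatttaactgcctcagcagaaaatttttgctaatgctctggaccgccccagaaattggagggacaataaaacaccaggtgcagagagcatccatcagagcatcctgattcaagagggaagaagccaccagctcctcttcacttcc
Gbp2 (chr3:142620413-142620712, plus strand): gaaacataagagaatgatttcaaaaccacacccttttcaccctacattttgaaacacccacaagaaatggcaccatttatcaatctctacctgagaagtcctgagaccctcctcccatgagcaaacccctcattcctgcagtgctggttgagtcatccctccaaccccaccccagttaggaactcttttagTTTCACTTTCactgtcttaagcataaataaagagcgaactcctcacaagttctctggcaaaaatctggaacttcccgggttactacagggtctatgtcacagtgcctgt

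All 5 chromosome 3 genes, neighbouring members of a family and so not independent of each other, held an ISRE core in the promoter shown. Across the 32851 RefSeq promoters of this length, 3.44% held one, and 3.99% of their 27025 genes had one in any promoter. Gbp3 had overlapping matches beginning 45 and 39 bases upstream of the start, while a promoter at a further RefSeq start of Gbp3 had no match. In Gbp7 and Gbp2 the match lay near the start, beginning 53 and 59 bases upstream, and in Gbp2b and Gbp5 farther away, at 137 and 165 bases. The GAS letters TTCNNNGAA, which read the same on both strands, occurred among these genes in Gbp5 and Gbp7 only, with 2 matches in each. Across RefSeq they occurred in 8.30% of all promoters and in any promoter of 9.55% of genes. No GAS match overlapped an ISRE core. These matches describe letters in a window and not binding.

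**Figure D1:**
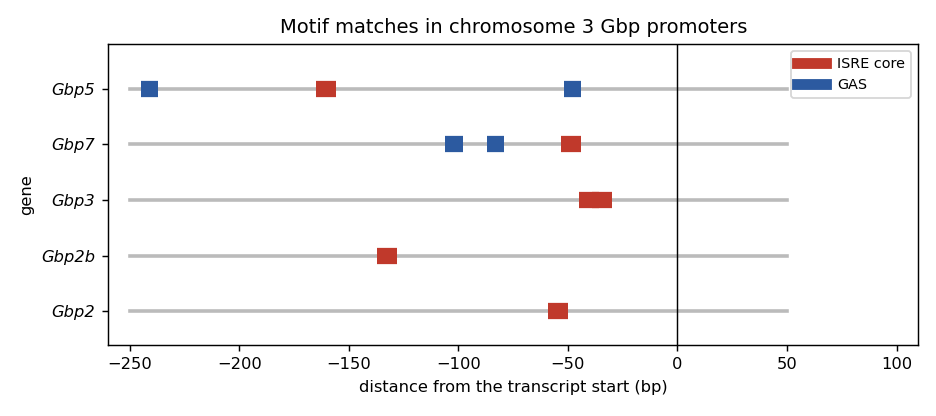
Positions of ISRE core matches (red) and GAS matches (blue) in the promoters of the 5 chromosome 3 Gbp genes, in bp from the transcript start (vertical line). Each gene has an ISRE core upstream of its start, and GAS matches lie in Gbp5 and Gbp7.

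All 6 Gbp loci had a higher value in the pretreated library, as did 40.1% of all usable loci, and by very different amounts. FPKM, a fragment count scaled by transcript length and by library size, puts loci of different length on one scale. The change was taken as the difference of log2(FPKM + 1) between pretreated and naive cells, which understates the change of low loci. On this scale 3 of the 6 loci were at least 2-fold higher and 0 were at least 2-fold lower, where 1.79% of all 17552 usable loci and 1.49% of the 15859 with a transcript ID were at least 2-fold higher. In the lower direction, 4.69% of usable loci had a change below -1.02. The median change of the 6 loci was 1.46, beside -0.06 for all usable loci.

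The table pairs no locus with a gene symbol, and 0 of 38980 transcript IDs occurred in the name tables used here, so gene names rest on lengths. XLOC_016859 (uc008roy.1, chr3:142283627-142300972) spans 17346 bp, exactly the RefSeq span of Gbp2 in GRCm38, and no other gene of the chromosome has that span. XLOC_016856, XLOC_016857 and XLOC_016858 carry the same span in the table, chr3:142159898-142282140, of 122243 bp. In RefSeq the distance from the start of Gbp5 to the end of Gbp2b, across Gbp7 and Gbp3, is 122246 bp, and 1483 bp separate Gbp2b from Gbp2, where 1486 bp separate these loci from XLOC_016859. By these lengths the 3 loci cover the stretch of Gbp5, Gbp7, Gbp3 and Gbp2b together, and lengths do not tell which locus is which gene. The uc008 transcript IDs rise in letter order along the chromosome at the loci around this span. In that order XLOC_016857 (uc008ros.1, uc008rot.1) comes before XLOC_016858 (uc008rou.1 to uc008row.1). XLOC_016856 holds IDs on both sides of them (uc008rop.1 to uc008ror.1, and uc008rox.1). No gene was assigned from this order, which was not tested. On chromosome 5, XLOC_020486 (uc008ykw.2, chr5:105505494-105539311) spans 33818 bp, near the 33894 bp of Gbp9. XLOC_020487 (7 transcript IDs, the first uc008ykx.1, chr5:105544786-105722792) spans 178007 bp, near the 180105 bp from the start of Gbp4 to the end of Gbp6, a stretch that also holds Gbp10, so its value pools several genes. These names were read after the values were seen, and exon, intron and UTR positions in mm9 were not assigned.

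XLOC_016859, the locus with the span of Gbp2, a membrane-anchored GBP of parasite vacuoles, had the highest naive value of the family. It stood at 58.9 FPKM in the naive library and at 118 FPKM in the pretreated one, a 2.005-fold ratio. Its change of 0.99 on the log2(FPKM + 1) scale lay just under the 2-fold line and was over it, at 1.00, with a pseudocount of 0.1, and at 1.15 when changes were centred on the median of loci averaging at least 1 FPKM. The authors' deposited table gave this locus a q-value of 0.0701 and no call.

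XLOC_016858, with 3 transcript IDs of the Gbp5 to Gbp2b stretch, the first uc008rou.1, had the largest change of the cluster. The naive library had 15.7 FPKM there and the pretreated library 122 FPKM, a 7.79-fold ratio and a change of 2.88. It ranked 53 among all usable loci by change. The call in the authors' deposited table was yes, with a q-value listed as 0.

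XLOC_016857 (uc008ros.1 and uc008rot.1) had nearly the naive level of XLOC_016858 and a far smaller difference. It read 13.3 FPKM without and 22.3 FPKM with pretreatment, a 1.68-fold ratio and a change of 0.71. XLOC_016856, with 5 transcript IDs, the first uc008rop.1, was barely detected in either library. It had 0.333 FPKM without and 0.654 FPKM with pretreatment, a 1.96-fold ratio that the pseudocount reduced to a change of 0.31. Neither was called: the authors' deposited table listed q-values of 0.125 for XLOC_016857 and 0.118 for XLOC_016856. Since these loci and XLOC_016858 carry one span, the division of fragments among the genes within it is uncertain.

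**Figure D2:**
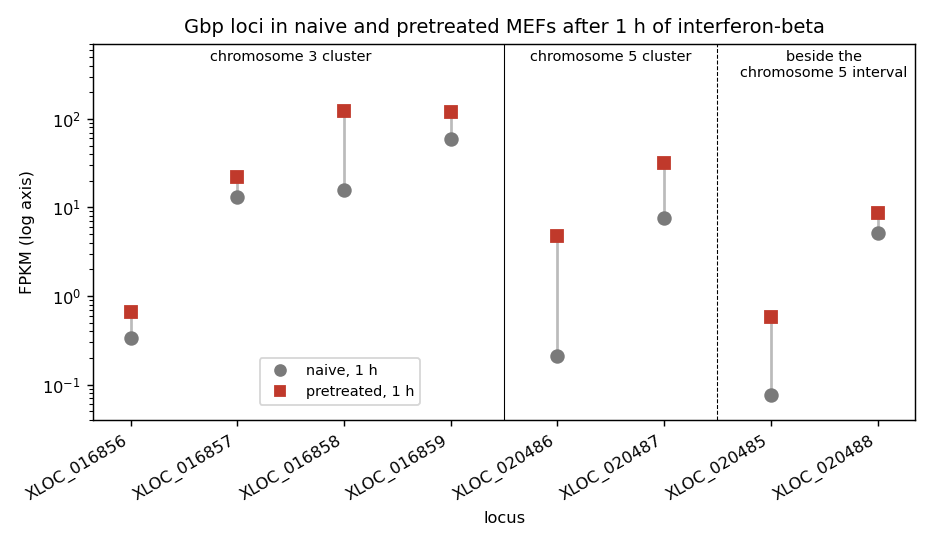
FPKM (log axis) of each Gbp locus and of the nearest locus on either side of the chromosome 5 interval in the naive (grey circles) and pretreated (red squares) library at 1 h, 1 library each. All 6 members lie higher in the pretreated library, from a 1.68-fold ratio at XLOC_016857 to a 22.6-fold ratio at XLOC_020486.

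The chromosome 5 cluster was expressed at lower levels and both of its loci passed 2-fold. XLOC_020486, whose length is near that of Gbp9, was low in the naive library and at a moderate level in the pretreated one. Its naive value of 0.211 FPKM was above 22.4% of usable loci, and its pretreated value of 4.77 FPKM above 69.9%. The ratio was 22.6-fold, or 4.50 on the log2 scale, and the change with the pseudocount was 2.25. Because the naive value is low, the size of this ratio is uncertain.

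XLOC_020487, the locus that stretches over Gbp4, Gbp10 and Gbp6, carried most of the cluster's expression. The naive library had 7.52 FPKM and the pretreated library 31.5 FPKM, a 4.19-fold ratio and a change of 1.93. By change, XLOC_020486 ranked 84 and XLOC_020487 ranked 104 among usable loci. The authors' deposited table called each of them, with q-values listed as 0.

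In all, the authors' deposited table called 3 of the 6 loci higher, XLOC_016858, XLOC_020486 and XLOC_020487, where 3.91% of the 13388 loci it tested were called higher. That test compares the reads of these 2 libraries and not the conditions. The layout is that of Cuffdiff, in which the change divided by the test statistic, taken without its sign, is the error attached to it. Read so from the authors' deposited table, the error of the log2 change was smallest at XLOC_020487 (0.18) and XLOC_016858 (0.18). It was 0.34 at XLOC_016857, 0.40 at XLOC_016859, 0.41 at XLOC_020486 and 0.44 at XLOC_016856, again as derived from the authors' deposited table. The locus with the span of Gbp2 thus had a larger error than XLOC_020487 and XLOC_016858 although its naive value was the highest of the family. Its error lay within the range of the tested loci flanking the clusters, described below. Theirs ran from 0.25 to 0.87, read in the same way from the authors' deposited table.

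**Figure D3:**
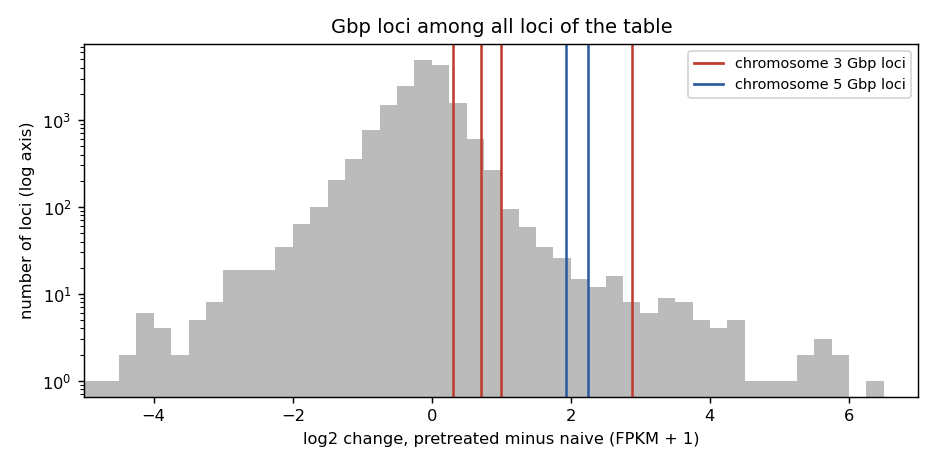
Number of usable loci (log axis) by log2 change of FPKM + 1, pretreated minus naive, with the chromosome 3 Gbp loci as red and the chromosome 5 loci as blue lines. The chromosome 5 loci, at 1.93 and 2.25, lie between XLOC_016858 at 2.88 and the other chromosome 3 loci, at 0.31 to 0.99; 22 loci below -5 are not shown.

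Set against each other, the clusters differed in level and in change. The median change was 0.85 on chromosome 3 (range 0.31 to 2.88) and 2.09 on chromosome 5 (1.93 to 2.25), a difference of -1.24. The ranges overlapped through XLOC_016858, and with 1 library per group the difference was not tested. Its size depended on the pseudocount, reaching -2.11 with 0.1 in place of 1, and on the border of the interval, falling to -0.44 when the nearest loci beside the chromosome 5 interval were added.

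Summed over loci, the chromosome 3 cluster had 88.2 FPKM without and 263 FPKM with pretreatment, a 2.99-fold ratio. The chromosome 5 cluster had 7.73 and 36.3 FPKM, a 4.70-fold ratio. Chromosome 3 thus held 11.4 times the summed FPKM of chromosome 5 in naive cells and 7.26 times in pretreated cells. These ratios depend on the border as well, since the chromosome 5 sums leave out the nearest loci beside the interval. XLOC_020488 had 5.15 FPKM in the naive and 8.63 FPKM in the pretreated library, and XLOC_020485 had 0.0754 and 0.580 FPKM. Adding them would raise the chromosome 5 sums and lower both ratios of chromosome 3 to chromosome 5. It would also lower the 4.70-fold ratio of chromosome 5 toward the 2.99-fold ratio of chromosome 3, as XLOC_020488 had a 1.68-fold ratio. Within each cluster the make-up differed between the libraries. XLOC_016859 held 66.8% of the chromosome 3 sum in naive and 44.8% in pretreated cells, and XLOC_016858 held 17.8% and 46.4%. XLOC_016859 was 3.75 times as high as XLOC_016858 in the naive library and 0.966 times as high in the pretreated one, so that these loci were level there. The ratio of XLOC_016859 to XLOC_016857 was similar in both, 4.43 and 5.29. On chromosome 5, XLOC_020486 held 2.73% of the sum in naive and 13.2% in pretreated cells.

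**Figure D4:**
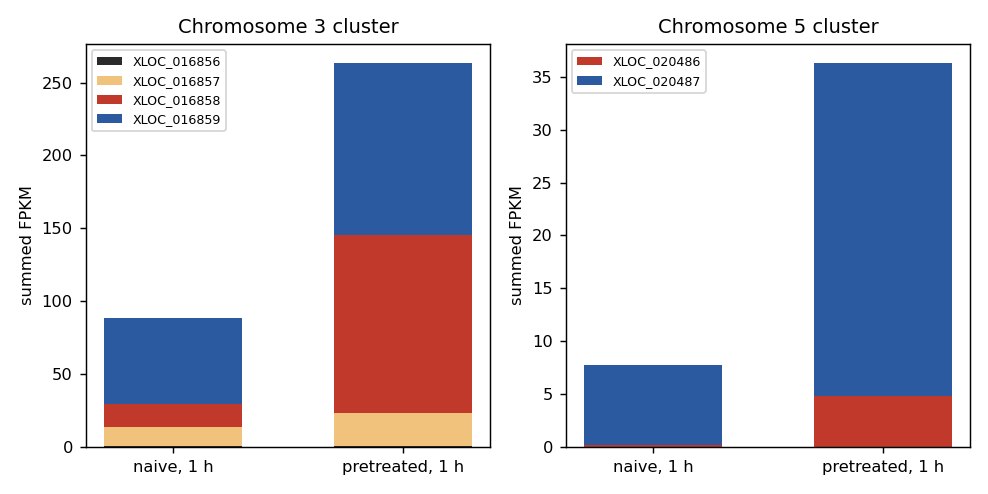
Summed FPKM of the loci in each cluster, stacked by locus, in the naive and pretreated library at 1 h; the vertical scales differ. The chromosome 3 sum was 88.2 and 263 FPKM and the chromosome 5 sum 7.73 and 36.3 FPKM, with the part of XLOC_016858 on chromosome 3 at 17.8% and 46.4%.

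Around the chromosome 3 interval the 10 nearest loci with a transcript ID, 5 on each side, were read. They lay 61028 to 3582612 bp from it. Of these, 0 were at least 2-fold higher and 1, which lay 3411837 bp away, was at least 2-fold lower. Among all usable loci, 4.69% had a change below the -1.02 of that locus. The median change of the 10 was -0.08, with a range of -1.02 to 0.15. The top change, of 0.15, came from a locus at 0.0350 FPKM in the naive and 0.146 FPKM in the pretreated library. Without the pseudocount its ratio was 4.18-fold. The nearest, XLOC_017438 below and XLOC_016860 above, had changes of 0.05 and -0.68. Around the chromosome 5 interval, 0 of 10 loci passed 2-fold in either direction on the log2(FPKM + 1) scale. Their changes ranged from -0.32 to 0.65. On that scale 1.79% of all usable loci were at least 2-fold higher. Several of the 10 were under 1 FPKM in both libraries, where the pseudocount leaves little room for a change. Without it, XLOC_020485, the nearest below, had a 7.69-fold ratio, and another, at 0.653 and 0.326 FPKM, a 0.4997-fold ratio.

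The highest of these 10 were the nearest on each side, and both border on Gbp genes by length. XLOC_020485 (uc008yku.1 and uc008ykv.1, chr5:105443172-105482580) ends 17420 bp outside the interval. RefSeq places Gbp8 next to Gbp9 with 22854 bp between them, and 22913 bp separate this locus from XLOC_020486, although its span of 39409 bp is not the 41097 bp of Gbp8. By these distances the locus at the place of Gbp8 lies outside the interval given for it, and it is not among the 6 members. XLOC_020485 had 0.0754 FPKM in the naive library and 0.580 FPKM in the pretreated one, a 7.69-fold ratio and a change of 0.56 with the pseudocount. It was called in the authors' deposited table with a q-value of 0.00983. XLOC_020488 (uc008ylc.2, chr5:105752045-105775491), on the other side, spans 23447 bp, near the 23451 bp of Gbp11, listed by RefSeq as a transcribed pseudogene. It begins 207259 bp after the start of XLOC_020487, exactly the RefSeq distance from the start of Gbp4 to that of Gbp11. There the naive library had 5.15 FPKM and the pretreated library 8.63 FPKM, a 1.68-fold ratio, and the authors' deposited table did not call it (q-value 0.166). The remaining 8 loci around the chromosome 5 interval had changes of -0.32 to 0.15.

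**Figure D5:**
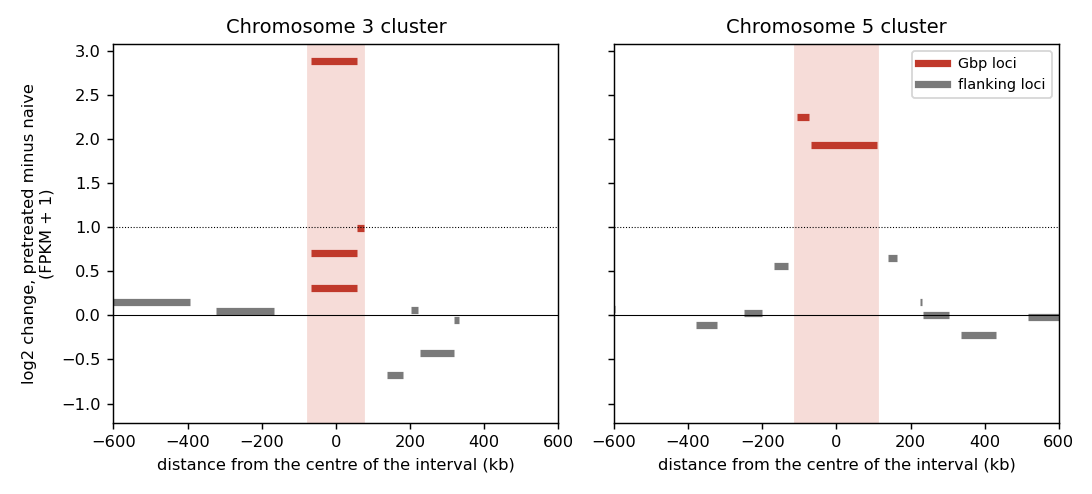
Log2 change of FPKM + 1 (pretreated minus naive) of Gbp loci (red) and flanking loci (grey) against the distance from the centre of each interval (shaded) in kb; bars are the spans of loci and the dotted line marks 2-fold. The 6 Gbp loci lie between 0.31 and 2.88, and the 10 flanking loci of chromosome 5 between -0.32 and 0.65; flanking loci beyond 600 kb are not drawn.

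Similar gene copies can share reads, and the clusters differed in this. Transcripts of the annotation GENCODE M21 linked to RefSeq were cut into all words of 50 bases. Of the words of Gbp6, 70.1% occurred in another Gbp gene, most often in Gbp10, and of the words of Gbp10, 50.3%, most often in Gbp6. The share was 21.2% for Gbp8, 19.2% for Gbp11, 12.1% for Gbp4 and 7.48% for Gbp9. On chromosome 3 it was at most 4.13%, in Gbp3, and 2.07% for Gbp2 and 0 for Gbp5. The part of read sharing in the values of XLOC_020487 was not tested; Gbp6 and Gbp10 fall in that one locus. The read length is not given in the sources used here, and the words come from GRCm38 transcripts.

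Regulators and partners of the family could be read only in part. A list of 29 genes (among them Irf1, Irf2, Irf9, Nlrc5, the Irg GTPases and inflammasome genes) was matched by span, and 3 had a locus with exactly the span of the RefSeq gene, too few to describe the list. Such matches are not proof of identity: of 13589 loci of at least 5000 bp, 18.3% shared their span with a RefSeq gene of their own chromosome and 1.99% with one of the next chromosome. The locus with the span of Irf1, a transcription factor that drives Gbp genes, had 555 FPKM without and 263 FPKM with pretreatment. Its change was -1.08, where 4.69% of all usable loci had a change below -1.02. Its relation to the Gbp values was not tested. The locus with the span of Irf2, a related factor often acting as a repressor, had 6.31 and 5.59 FPKM, a change of -0.15. That of Casp1, the inflammasome protease, had 0.190 and 0.258 FPKM and was not tested by the authors.

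By the same reading, 3 of 10 fibroblast markers were found. Vim stood at 917 FPKM without and 704 FPKM with pretreatment and Col3a1 at 111 and 69.1 FPKM, while Thy1 was low, at 0.144 and 0.293 FPKM. Of 12 markers of other cell types 1 was found, the macrophage receptor gene Csf1r, at 0.0479 and 0.0168 FPKM. The part of other cells in the Gbp values was not tested beyond this. The number of reads behind each value is unknown. Loci without a transcript ID and at 0 in 1 library were compared at 14 spans. Their reads in the other library, 1 to 4, were inferred from the deposited p-value. That p-value was taken as the upper normal tail beyond the square root of the reads, which was not checked against read counts. The FPKM value of 1 read came from different loci in each library, with naive values interpolated by span. In the pretreated library it was 2.03 times that in the naive library at the median (2.01 to 2.04). Because the scaling between the libraries is not given in the sources used here, this need not be the ratio of their depths.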

How the data were processed

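Members and lists were chosen with earlier results of these data known. The deposited table has 1 row per locus for naive and pretreated MEFs at 1 h. The authors made the FPKM values with TopHat and Cufflinks 1.2.1 on mm9, per the submitters' processing notes; the annotation, filters and scaling between libraries are not given in the sources used here. The deposited p-values and q-values, log2 fold change and test statistic (scores here, as placeholders stand where a value is 0) were copied as the authors gave them.

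Loci with status OK or NOTEST (17552) were usable. The change was log2(FPKM + 1), pretreated minus naive, computed with pandas 2.3.3 and numpy 2.4.6; the calculation was tested on simulated data. With 1 library per group no test was run. Every member locus is named, and of 5 flanking loci per side the nearest. Deposited starts were raised by 1. Promoters and gene lengths are RefSeq's (GRCm38.p6); only lengths were compared between builds. Alternatives were the pseudocount, a filter at a mean FPKM of 1, centring, locus borders, shared spans, the threshold and the adjustment of p-values; genes of like pattern were not sought, as each locus has 1 contrast.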

Additional observations from a re-analysis of the deposited data

How the results depend on the processing

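The chromosome 3 median was below that of chromosome 5 with the other pseudocount, the minimum FPKM, the changed borders and the omission of shared spans; centring cannot move their difference, and the 4-fold threshold and the readjusted p-values bear on counts alone. A pseudocount of 0.1 gave 2 chromosome 3 loci past 2-fold in place of 1, medians of 0.90 and 3.01, and a difference of -2.11. A minimum mean FPKM of 1 gave a chromosome 3 median of 0.99 and a difference of -1.10. Centring on the median of the loci with that minimum, which was -0.16, gave 2 chromosome 3 loci past 2-fold and medians of 1.01 and 2.25. Leaving out loci that share their span left XLOC_016859 alone on chromosome 3, with 0 loci past 2-fold, a median of 0.99 and a difference of -1.10. At 4-fold, 1 of 4 loci passed on chromosome 3 (XLOC_016858) and 1 of 2 on chromosome 5 (XLOC_020486). The equal counts rest on the pseudocount of 1. With it XLOC_020487, at a 4.19-fold ratio, had a change of 1.93, under the 4-fold line. With a pseudocount of 0.1 its change was 2.05, over that line. Adding XLOC_020485 and XLOC_020488, a choice made after seeing the data, gave a chromosome 5 median of 1.29 and a difference of -0.44. Readjusting the deposited p-values over loci with a transcript ID left 3 calls. The other-cell and pathway lists were not run as comparisons, since symbols were not paired with IDs. No paired analysis was possible because the groups hold a single library each, and for the same reason no replicate could be omitted. Low values, such as that of XLOC_020486 in naive cells, rest on an unknown number of reads.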
